A study of Mus musculus with 2 samples.

Results

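The genes Pdcd1, Lag3, Havcr2, Tigit, Cd160, Btla, Cd200, Cd96 and Tox, 9 of 32285 genes counted, were followed through CD4 T cells from the visceral adipose tissue (VAT, the fat of the abdominal cavity) of mice. They were taken by gene symbol from the count matrix of each library. The proteins of 8 of them sit on the T cell surface, and TOX is a transcription factor. Cells were profiled by droplet-based single-cell RNA sequencing in 1 library from CD27_KO mice (CD27-/-) and 1 library from WT mice. CD27, a member of the TNF receptor family, costimulates T cells when it binds its ligand CD70. In both groups, TCRb+ CD4+ cells came by sorting from the stromal vascular fraction, which is what remains of the fat once the adipocytes are removed. The mice were pooled before sorting, and the labels give 10 mice without saying if that is per pool or in total. C57BL/6 is the genotype entry of both libraries, and the groups were taken from the titles. The sources used here do not give age, sex or the part of Cd27 that is deleted.

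Inhibitory receptors are switched on when a T cell is stimulated, and most of them dampen signalling from the T cell receptor once they meet their ligand. Regulatory T cells and follicular helper T cells carry several of them at rest, and naive T cells carry few. TOX is an HMG-box DNA-binding protein that is needed for CD4 T cell development in the thymus. In mature T cells it is known for maintaining PD-1 and other inhibitory receptors under lasting stimulation.

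The CD27_KO library held 6893 barcodes and 20191704 UMIs (unique molecular identifiers, each counting 1 captured transcript), and the WT library held 6398 barcodes and 16628623 UMIs. After filtering and removal of small B cell-like, dendritic cell-like and stromal-like clusters, 6790 CD27_KO and 6203 WT T cells remained, with medians of 2200.5 and 1931 UMIs per cell. The libraries shared 12 cell barcodes. Cd27 itself had 15 UMIs in CD27_KO T cells and 2072 in WT T cells, or 0.758 and 131 CPM (UMIs of the gene scaled by all UMIs of the same cells). Cd4 had 146 CPM in CD27_KO and 131 CPM in WT T cells. As each group is 1 library of pooled mice, the spread between mice is unknown and no test across samples was possible. All intervals are at 95% and cover counting error only. UMIs were treated as independent, which makes the intervals too narrow where UMIs lie together in few cells. RNA free in the droplets and doublets were not modelled, and their part in the values was not tested. Markers of other cell types, summed over T cells, stood at 90.5 CPM in CD27_KO and 115 CPM in WT for B cells, 249 and 250 CPM for dendritic cells, 4.04 and 7.14 CPM for macrophages, and 39.1 and 45.5 CPM for stromal cells. Of the 9 macrophage markers, 8 were detected in each library and Csf1r was at 0 in both. Of the 8 stromal markers, 5 were detected in CD27_KO and 6 in WT, and Pdgfra was at 0 in both. Markers of NK receptors summed to 133 CPM in CD27_KO and 203 CPM in WT T cells, and those of innate type 2 cells to 851 and 639 CPM.

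The T cells were clustered without the 9 genes, so that no cluster was built from them. Treg-like cells formed a cluster led by Cxcl2 and Areg (283 CD27_KO and 1120 WT cells) and a smaller cluster led by Foxp3 and Ctla4 (198 and 104 cells). The Th2-like cluster, led by Calca and Rnf128, held 1401 CD27_KO and 312 WT cells. Innate type 2 cells, which also make Calca, were its second candidate type. Th1-like cells formed a cluster led by Il18r1 and Itga1 (922 and 498 cells) and another led by Ly6c2 and Xcl1 (233 and 941 cells). Naive-like cells, led by Dapl1 and Ccr7, numbered 317 in CD27_KO and 1307 in WT. The large clusters without a name were led by P2rx7 and Lyst (1793 and 280 cells), by Slamf6 and Gpm6b (590 and 1019 cells) and by Sytl3 and Socs2 (595 and 200 cells). Smaller clusters were cycling-like (160 and 68 cells), NK-receptor-like (53 and 98), Th17-like (46 and 85), follicular helper-like (40 and 78), interferon response-like (61 and 39), and unnamed with Gzma and Cx3cr1 in the lead (98 and 54). A ratio over all T cells therefore mixes the level within states with the make-up of the pool, so each gene is also given with every class at the same share in both libraries.

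Over all T cells, Tox, Pdcd1 and Cd200 were lower in CD27_KO than in WT, and no member was 1.5-fold higher. A depth of at least 100 UMIs over both libraries was reached by 8 members. Of these, 3 were at least 1.5-fold lower, against 2.86% of all 9755 genes at that depth, and 0 were at least 1.5-fold higher, against 7.03% of them. Havcr2, with 64 UMIs in all, fell under that depth. With classes at equal shares, 2 members were 1.5-fold lower (Tox and Pdcd1), against 1.69% of genes, and 0 were 1.5-fold higher, against 4.77%. The median log2 ratio over all genes was 0.17, and 0.13 at equal shares. Under 3 of the 6 other ways to set the classes, that lower count was 1 and held Tox alone.

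**Figure D1:**
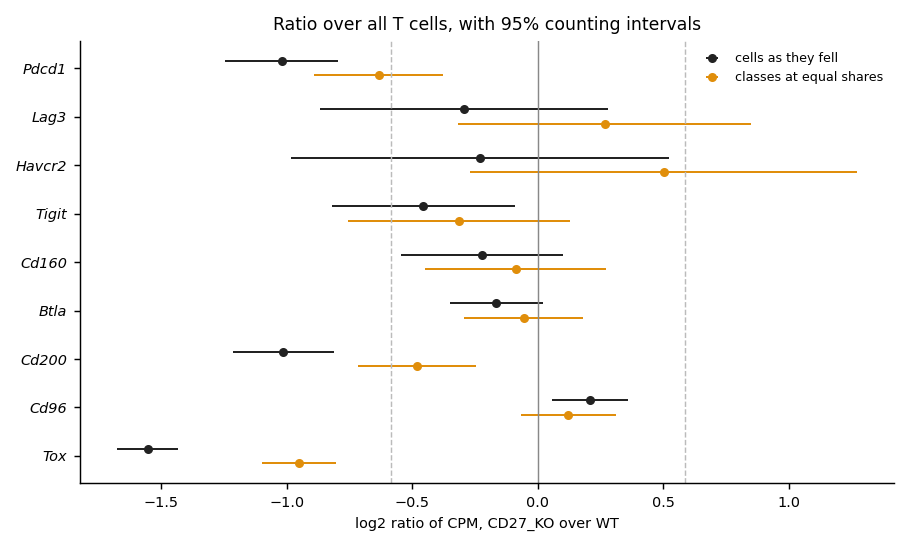
Log2 ratio of CPM, CD27_KO over WT, for each of the 9 genes over all T cells (black, cells as they fell) and with every class at the same share in both libraries (orange). Points are ratios, bars are 95% counting intervals, and dashed lines mark 1.5-fold. Tox, Pdcd1 and Cd200 lie furthest to the left, and all 3 lie closer to 0 at equal shares.

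Tox (ENSMUSG00000041272) spans bases 6686353 to 6991557 of chromosome 4 on the reverse strand (mm10). An antisense gene, Gm11802, overlaps it and had 2 UMIs in each library. CD27_KO T cells held 772 Tox UMIs, or 39.0 CPM, against 1814 UMIs, or 115 CPM, in WT T cells. The log2 ratio was −1.55 (−1.68 to −1.43), a 2.94-fold lower level in CD27_KO. At equal class shares the levels were 45.8 CPM in CD27_KO and 88.6 CPM in WT, and the log2 ratio was −0.95 (−1.10 to −0.80). When each cell was thinned to 1300 UMIs, 4.53% of CD27_KO and 11.9% of WT cells had a Tox UMI. Without thinning these shares were 9.01% and 19.7%. Treg-like cells, 7.08% of CD27_KO and 19.7% of WT T cells, held 29.1% of the Tox UMIs of CD27_KO and 49.6% of those of WT.

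Across states, Tox was highest in the follicular helper-like cluster of the WT library, at 494 CPM on 95 UMIs, where CD27_KO had 60.0 CPM on 8 UMIs. This is the widest gap of the gene, a log2 ratio of −3.04 (−4.29 to −2.00), and it rests on 40 CD27_KO and 78 WT cells. Other genes of that cluster also differed between the libraries: Sostdc1 had 0 UMIs in CD27_KO and 89 in WT T cells, and Il21 had 8 and 48. Whether the 40 CD27_KO cells are of the same state as the 78 WT cells was not tested. The Treg-like clusters came next. The cluster led by Cxcl2 and Areg had 96.5 CPM in CD27_KO and 205 CPM in WT (log2 −1.09, −1.34 to −0.84), with medians of 4391 and 2772.5 UMIs per cell. The cluster led by Foxp3 and Ctla4 had 123 CPM in CD27_KO and 207 CPM in WT (log2 −0.75, −1.32 to −0.17). Within either library the levels of these clusters did not differ beyond counting error, as their intervals overlap.

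In the Th2-like and Th1-like clusters Tox stood below its level in Treg-like cells of the same library, and it was lower in CD27_KO in all but 1 of them. Th2-like cells had 32.6 CPM in CD27_KO and 74.7 CPM in WT (log2 −1.19, −1.62 to −0.76). The Th1-like cluster led by Il18r1 and Itga1 had 34.8 CPM in CD27_KO and 97.7 CPM in WT (log2 −1.49, −1.81 to −1.18). The Th1-like cluster led by Ly6c2 and Xcl1 did not share this: it had 46.5 CPM in CD27_KO and 44.4 CPM in WT (log2 0.06, −0.69 to 0.77). Naive-like cells also had like levels, 64.7 CPM in CD27_KO and 60.6 CPM in WT (log2 0.09, −0.42 to 0.58). The difference between these clusters and the others was not tested.

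Of the 12 T cell clusters with at least 50 cells in each library, 11 had at least 20 Tox UMIs. Tox was at least 1.5-fold lower in CD27_KO in 9 of those 11, and all 9 intervals lay below 0. Among 3523 genes with 20 UMIs in at least 11 of the 12 clusters, 9 genes, or 0.255%, were 1.5-fold lower in at least 9 clusters. Tox, Cd27, Capg and Gstp1 were among these, and the names were chosen after the values were seen. Cd96, the only other member deep enough for this count, was not among them. Tox was the only member at least 1.5-fold lower in the Th1-like class (1 of 6 members with 100 UMIs, against 1.31% of 6813 genes), in Th2-like cells (1 of 2, against 2.05% of 5707 genes) and in the Treg-like class (1 of 5, against 2.29% of 6252 genes). No member was 1.5-fold higher in these classes, against 6.09%, 10.5% and 5.81% of genes. In naive-like cells 0 of 3 members were 1.5-fold lower or higher, against 2.85% and 8.84% of 3089 genes. The Th1-like class was made up mainly of the Il18r1 cluster in CD27_KO and of the Ly6c2 cluster in WT, and the Foxp3 cluster took a larger part of the Treg-like class in CD27_KO.

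States set by transcripts in place of clusters gave the same direction for Tox in the effector and regulatory groups. Cells with a Foxp3 UMI had 91.5 CPM of Tox in CD27_KO and 207 CPM in WT (log2 −1.18, −1.45 to −0.91). In cells without Foxp3 but with Il1rl1, the gene of the IL-33 receptor, Tox stood at 37.2 CPM in CD27_KO and 154 CPM in WT (log2 −2.05, −2.27 to −1.82). That group differed in make-up: Th2-like cells were 69.9% of it in CD27_KO and 27.3% in WT, and Treg-like cells were 5.41% and 56.1%. Split by class, the ratio was nearer 0, at −1.31 (−1.76 to −0.85) in its Th2-like cells and −1.01 (−1.44 to −0.60) in its Treg-like cells.

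**Figure D2:**
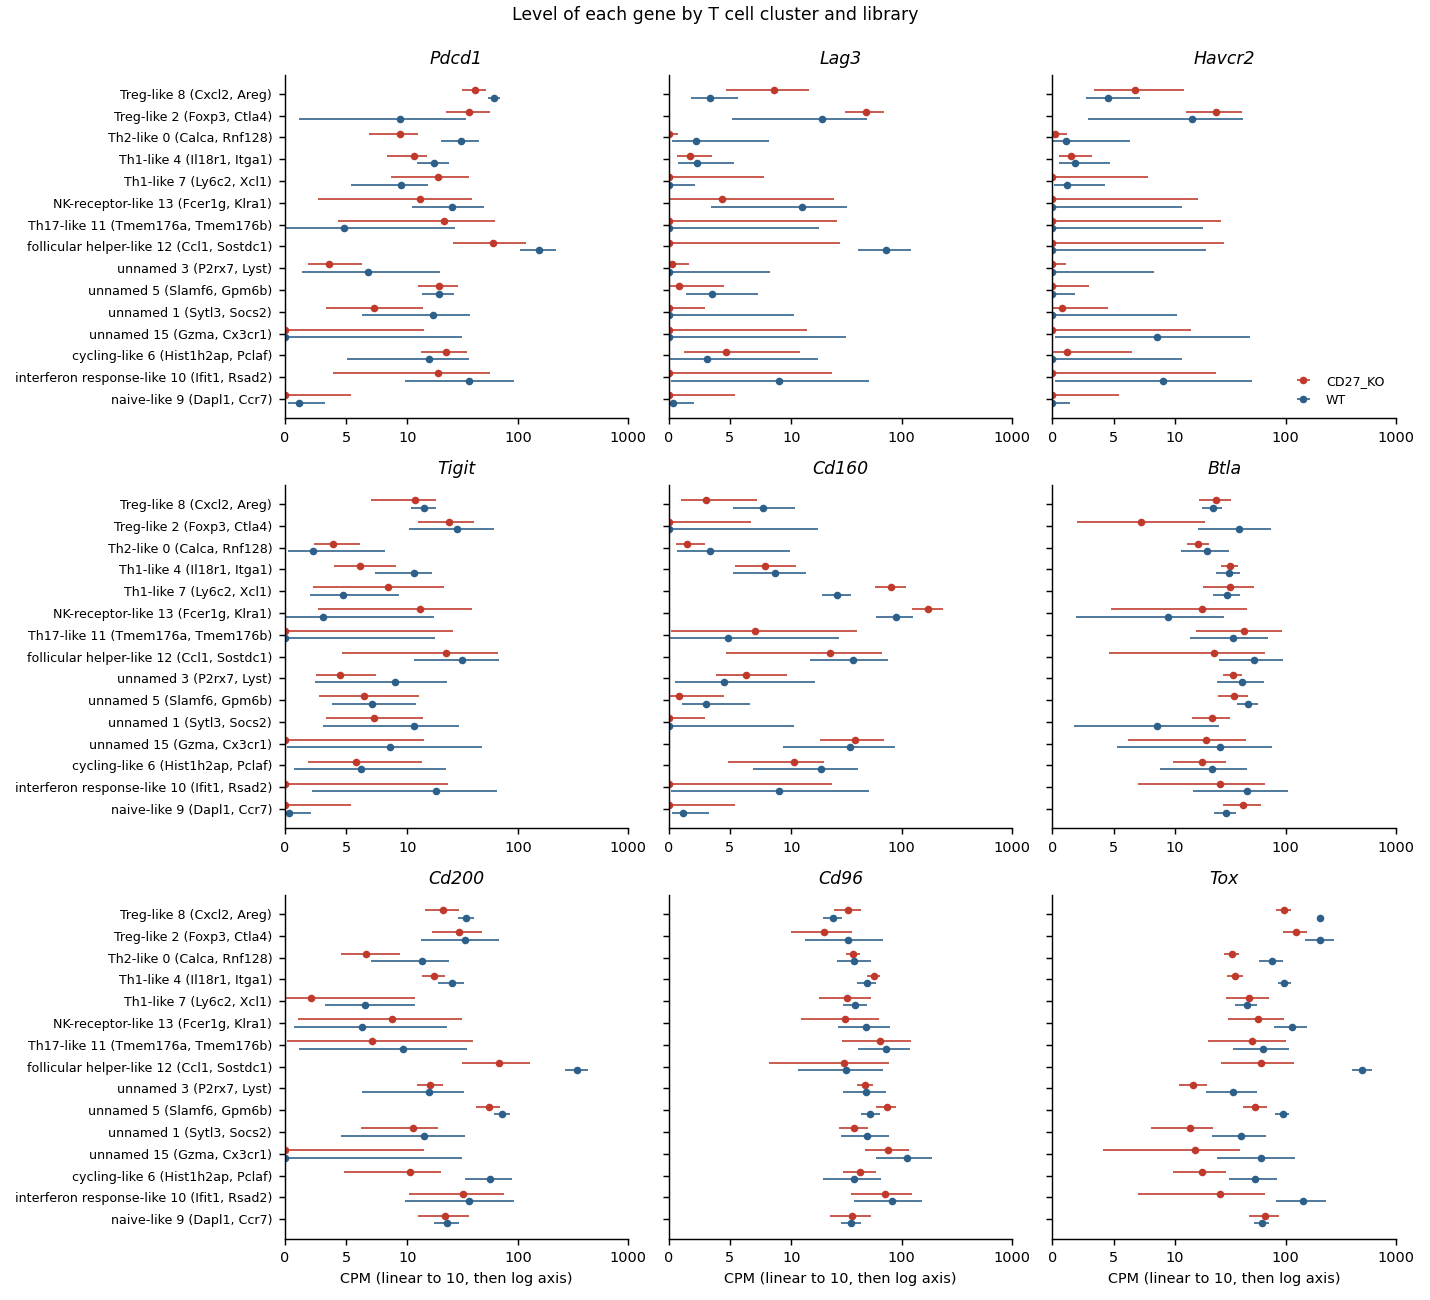
Level of each of the 9 genes (CPM, linear to 10 and then a log axis) in each T cell cluster, with CD27_KO in red above WT in blue and 95% counting intervals as bars. Tox and Cd200 are highest in the WT follicular helper-like cluster, and Cd160 in the NK-receptor-like cluster of CD27_KO.

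Pdcd1 encodes PD-1, the receptor of PD-L1 and PD-L2, which recruits a phosphatase to switch off T cell receptor and CD28 signals. The gene (ENSMUSG00000026285) spans bases 94038305 to 94052553 of chromosome 1 on the reverse strand. NFAT, the factor activated by calcium signals from the T cell receptor, is known to drive Pdcd1 through sites upstream of the gene. The promoters below (RefSeq, GRCm38.p6, 250 bases before to 50 after the start, all on the reverse strand of the genome and written 5′ to 3′) are shown because Pdcd1 and Cd200 were the surface genes furthest lower in CD27_KO, while Cd96 was the only member above WT over all T cells. Capitals mark GGAAA, the core of NFAT sites, or TTTCC, the same core on the other strand. The Pdcd1 window is chr1:94052504-94052803, the Cd200 window chr16:45409004-45409303 and the Cd96 window chr16:46120199-46120498.
Pdcd1: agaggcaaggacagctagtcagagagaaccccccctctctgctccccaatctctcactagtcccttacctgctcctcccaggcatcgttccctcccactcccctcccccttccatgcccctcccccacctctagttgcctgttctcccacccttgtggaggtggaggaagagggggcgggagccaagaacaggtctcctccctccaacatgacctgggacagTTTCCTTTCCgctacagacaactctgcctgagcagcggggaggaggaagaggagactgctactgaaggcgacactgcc
Cd200: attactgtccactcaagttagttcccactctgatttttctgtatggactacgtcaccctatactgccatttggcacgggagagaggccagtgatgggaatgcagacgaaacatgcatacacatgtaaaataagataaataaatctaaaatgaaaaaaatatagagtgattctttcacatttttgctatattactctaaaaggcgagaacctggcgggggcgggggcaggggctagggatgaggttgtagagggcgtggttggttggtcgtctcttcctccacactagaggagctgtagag
Cd96: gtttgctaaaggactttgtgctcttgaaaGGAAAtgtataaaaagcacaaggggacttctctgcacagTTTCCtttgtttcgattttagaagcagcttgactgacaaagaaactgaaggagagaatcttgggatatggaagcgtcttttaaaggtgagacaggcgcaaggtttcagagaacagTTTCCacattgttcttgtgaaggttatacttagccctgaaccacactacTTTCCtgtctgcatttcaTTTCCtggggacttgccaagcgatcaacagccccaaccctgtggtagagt
The core occurred 2 times in the Pdcd1 window, 0 times in the Cd200 window and 5 times in the Cd96 window. It is short and common: 61.3% of the 32851 RefSeq promoter windows held it on either strand. Of the other members, Tigit held 2 cores, Havcr2 and Btla held 0, and Cd160 held 0 and 1 in its 2 windows. These counts describe letters and do not show binding. Whether the marked cores of Pdcd1 are among its known NFAT sites was not checked, and those sites may lie outside the window. No entry was matched for Lag3 and Tox.

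CD27_KO T cells had 267 Pdcd1 UMIs, or 13.5 CPM, against 433 UMIs, or 27.3 CPM, in WT T cells. The log2 ratio was −1.02 (−1.24 to −0.80), 2.03-fold lower in CD27_KO. Treg-like cells held 32.2% of the Pdcd1 UMIs in CD27_KO and 58.7% in WT. At equal class shares the log2 ratio was −0.63 (−0.89 to −0.38), and over all T cells without the Treg-like cells, a setting added after seeing the data, it was −0.60. After thinning, 1.53% of CD27_KO and 3.07% of WT cells had a Pdcd1 UMI, and without thinning 3.28% and 5.51%. In naive-like cells, which should lack PD-1, 0 of 317 CD27_KO cells had a UMI, for which the limit of 3 counts allows a share of up to 0.946%, and 3 of 1307 WT cells did (0.230%), at medians of 2087 and 1866 UMIs per cell.

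Among the states, Pdcd1 was highest in follicular helper-like cells, with 60.0 CPM in CD27_KO (8 UMIs) and 156 CPM in WT (30 UMIs), a log2 ratio of −1.38 (−2.71 to −0.22). Shares of those cells with a UMI had overlapping intervals, at 17.5% in CD27_KO (7.34 to 32.8) and 28.2% in WT (18.6 to 39.5). Thinned to 2000 UMIs, these shares were 15.6% and 23.8%, and their intervals overlapped too. In the Treg-like cluster led by Cxcl2 and Areg it stood at 40.6 CPM in CD27_KO and 60.5 CPM in WT (log2 −0.58, −0.99 to −0.18). The thinned share of cells with a UMI did not follow that difference, at 8.54% in CD27_KO and 8.27% in WT. The Foxp3 and Ctla4 cluster went the other way, with 36.3 CPM in CD27_KO (20 UMIs) and 9.41 CPM in WT (2 UMIs), but its log2 ratio of 1.95 had an interval from −0.10 to 5.09.

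The widest gap with an interval wholly below 0 was in Th2-like cells, where CD27_KO had 9.36 CPM (45 UMIs) and WT had 30.6 CPM (27 UMIs), a log2 ratio of −1.71 (−2.43 to −0.96). In cells with Il1rl1 and no Foxp3 transcript, most of them Th2-like in CD27_KO and Treg-like in WT, the levels were 13.4 CPM in CD27_KO and 54.4 CPM in WT (log2 −2.02, −2.41 to −1.65). Split by class, the ratio was −1.73 (−2.48 to −0.94) in the Th2-like and −1.27 (−2.13 to −0.52) in the Treg-like cells of that group. In Th1-like cells both intervals spanned 0. The Il18r1 cluster had 11.3 CPM in CD27_KO and 17.3 CPM in WT (log2 −0.61, −1.26 to 0.05), and the Ly6c2 cluster had 19.0 CPM and 9.48 CPM on 9 and 16 UMIs (log2 1.004, −0.36 to 2.27). In the cluster led by Slamf6 and Gpm6b the levels were 19.4 CPM in CD27_KO and 19.2 CPM in WT. No Pdcd1 UMI was found in the cluster led by Gzma and Cx3cr1, in 98 CD27_KO and 54 WT cells.

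Cd200 encodes the ligand of the inhibitory receptor CD200R1, so here the T cell shows the ligand rather than the receptor. The gene (ENSMUSG00000022661) spans bases 45382135 to 45409053 of chromosome 16 on the reverse strand. CD27_KO T cells had 330 UMIs, or 16.7 CPM, against 533 UMIs, or 33.7 CPM, in WT. The log2 ratio was −1.01 (−1.22 to −0.81), and −0.48 (−0.71 to −0.24) at equal class shares, which is under 1.5-fold. Thinned cells with a UMI made up 2.02% of CD27_KO and 3.76% of WT T cells. Of its WT UMIs, 12.4% came from follicular helper-like cells, which were 1.26% of WT T cells.

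In that follicular helper-like cluster Cd200 had 67.5 CPM in CD27_KO (9 UMIs) and 343 CPM in WT (66 UMIs), with a log2 ratio of −2.35 (−3.54 to −1.33). The Slamf6 and Gpm6b cluster followed, with 54.3 CPM in CD27_KO and 71.9 CPM in WT (log2 −0.40, −0.85 to 0.02). The Treg-like cluster led by Cxcl2 and Areg had 20.9 CPM in CD27_KO and 33.9 CPM in WT (log2 −0.70, −1.28 to −0.15). Cycling-like cells had 10.52 CPM in CD27_KO and 56.0 CPM in WT (log2 −2.41, −3.75 to −1.18), on 9 and 18 UMIs. Of the 18 WT UMIs, 8 lay in the same cell. Cycling-like cells with a UMI were 8 of 160 in CD27_KO and 9 of 68 in WT. The intervals of these shares overlap, at 2.18% to 9.61% in CD27_KO and 6.23% to 23.6% in WT. In naive-like cells the levels were 22.1 and 23.0 CPM. Of 8 large clusters with at least 20 Cd200 UMIs, 7 had a ratio below 0, and 2 of those intervals lay wholly below 0. Stromal-like cells, which are no T cells, had more Cd200 than any T cell cluster, at 553 CPM in CD27_KO (11 cells) and 584 CPM in WT (29 cells). Dendritic cell-like cells had 160 and 150 CPM. Cells of both kinds were left out of the T cell values, and the part of their free RNA in them was not tested.

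**Figure D3:**
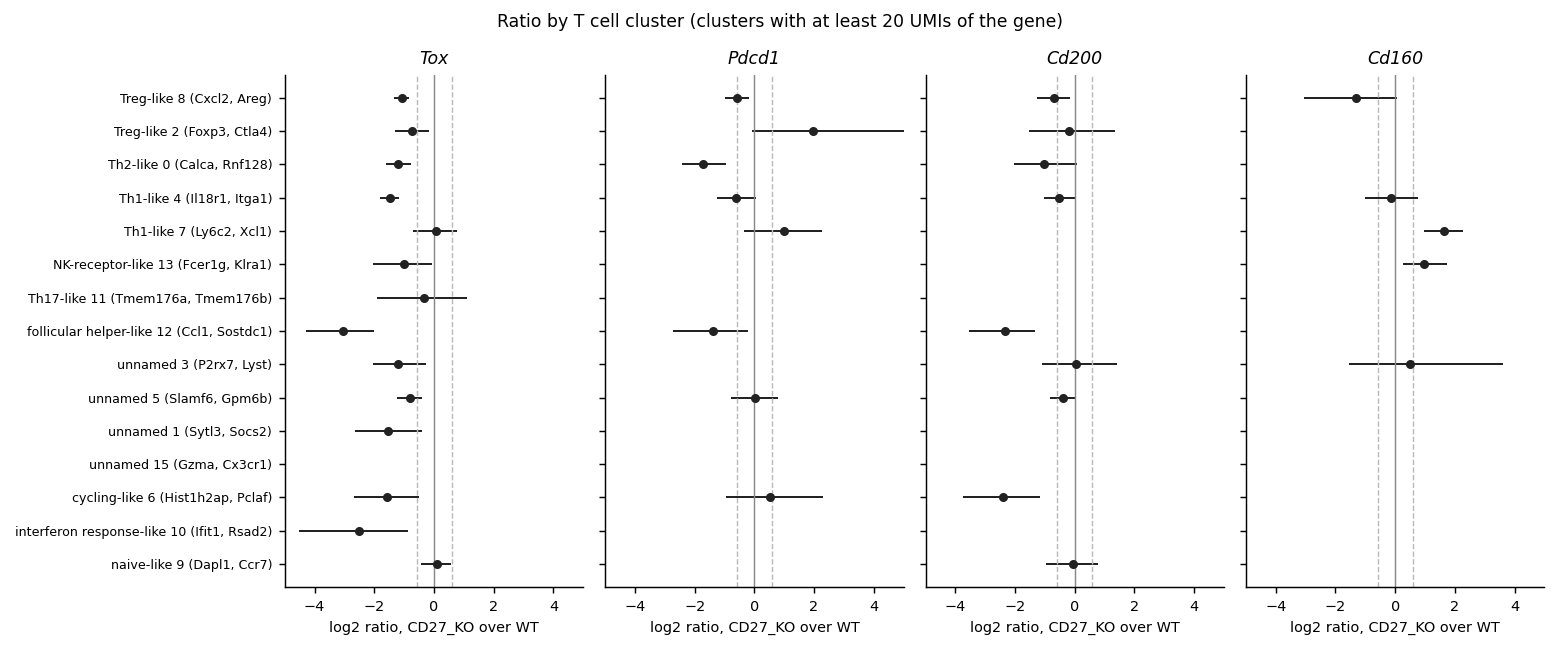
Log2 ratio of CPM, CD27_KO over WT, in each T cell cluster with at least 20 UMIs of the gene, for Tox, Pdcd1, Cd200 and Cd160, with 95% counting intervals and dashed lines at 1.5-fold. Tox lies left of 0 in all clusters shown but the Ly6c2 cluster and the naive-like cluster, while Pdcd1 and Cd160 have clusters on both sides. The axis stops at 5, short of the upper bound of 5.09 for Pdcd1 in the Foxp3 and Ctla4 cluster.

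Tigit and Cd96 encode receptors that share the ligand CD155, the product of Pvr, with the activating receptor CD226. TIGIT is inhibitory and is known on regulatory T cells, and CD96 has been described as inhibitory in mouse NK cells. With Btla and Cd200 they lie on chromosome 16, where Tigit spans bases 43648867 to 43664146 and Cd96 bases 46035657 to 46120251. Tigit had 123 UMIs, or 6.22 CPM, in CD27_KO T cells and 135 UMIs, or 8.53 CPM, in WT T cells (log2 −0.46, −0.82 to −0.09). With classes at equal shares the interval of its log2 ratio, −0.31, ran from −0.76 to 0.13. Treg-like cells held 26.0% of its UMIs in CD27_KO and 48.1% in WT. Tigit stood at 23.6 CPM in CD27_KO and 28.2 CPM in WT in the Foxp3 and Ctla4 cluster, and at 11.7 and 14.2 CPM in the Cxcl2 and Areg cluster. In the Il18r1 Th1-like cluster it had 6.17 CPM in CD27_KO and 11.4 CPM in WT (log2 −0.89, −1.75 to −0.03). Th2-like cells had 3.95 CPM on 19 UMIs in CD27_KO and 2.26 CPM on 2 UMIs in WT, which are indistinguishable. Of naive-like cells, 0 of 317 in CD27_KO and 1 of 1307 in WT had a Tigit UMI.

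Cd96 was the only member with a ratio above 0 over all T cells, by less than 1.5-fold. It had 883 UMIs, or 44.6 CPM, in CD27_KO and 612 UMIs, or 38.7 CPM, in WT (log2 0.21, 0.06 to 0.36), close to the median gene at 0.17. Its log2 ratio at equal class shares was 0.12 (−0.07 to 0.31). Thinned cells with a UMI made up 5.80% of CD27_KO and 4.61% of WT T cells, and stromal-like cells had none in 11 CD27_KO and 29 WT cells. Cd96 was spread over all states, and the only large cluster whose interval lay apart from 0 was the Slamf6 and Gpm6b cluster, with 72.9 CPM in CD27_KO and 52.1 CPM in WT (log2 0.48, 0.06 to 0.91). Cd96 was highest in the small cluster led by Gzma and Cx3cr1, at 75.8 CPM in CD27_KO and 111 CPM in WT, with a log2 interval from −1.63 to 0.58. In both libraries the interval of that level overlapped the interval of the Slamf6 and Gpm6b cluster. Among the T cell clusters, the lowest level in CD27_KO was 19.9 CPM, in the Treg-like cluster led by Foxp3 and Ctla4. In WT it was 23.8 CPM, in the Treg-like cluster led by Cxcl2 and Areg. The other Treg-like cluster, at 32.6 CPM in CD27_KO and 32.9 CPM in WT, stood above follicular helper-like cells of the same library.

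Btla and Cd160 encode receptors for HVEM, the product of Tnfrsf14. BTLA is an immunoglobulin-family receptor that is also found on resting B and T cells, and CD160 is known on NK cells and cytotoxic T cells. Btla (chromosome 16, bases 45224315 to 45257670) had 507 UMIs, or 25.6 CPM, in CD27_KO T cells and 455 UMIs, or 28.7 CPM, in WT T cells (log2 −0.17, −0.35 to 0.02). At equal class shares the log2 ratio was −0.06 (−0.29 to 0.18). The Slamf6 and Gpm6b cluster had 34.0 CPM in CD27_KO and 45.5 CPM in WT, naive-like cells 41.2 and 28.6 CPM, and Th2-like cells 16.2 and 19.2 CPM. None of the 9 large clusters with at least 20 Btla UMIs had an interval apart from 0. Its log2 ratios there ran from −0.42 to 1.36, the highest on 27 and 3 UMIs in the cluster led by Sytl3 and Socs2.

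Cd160 (chromosome 3, bases 96798763 to 96829351) overlaps Pdzk1 on the other strand, which had 0 UMIs in CD27_KO and 1 in WT T cells. Over all T cells it had 167 UMIs, or 8.44 CPM, in CD27_KO and 156 UMIs, or 9.85 CPM, in WT (log2 −0.22, −0.55 to 0.10). At equal class shares the log2 ratio was −0.09 (−0.45 to 0.27), and it moved from −0.35 to 0.96 with other ways to set the classes. No cluster had an interval wholly below 0, and 2 had one wholly above it. NK-receptor-like cells, the state with the highest level, had 174 CPM in CD27_KO (40 UMIs in 53 cells) and 88.3 CPM in WT (28 UMIs in 98 cells), a log2 ratio of 0.98 (0.25 to 1.73). The UMIs lay in 19 of the CD27_KO and 23 of the WT cells. As shares of cells these are 35.8% (23.1 to 50.2) and 23.5% (15.5 to 33.1), whose intervals overlap. The Ly6c2 and Xcl1 cluster had 80.3 CPM in CD27_KO and 26.1 CPM in WT (log2 1.62, 0.96 to 2.28), on 38 and 44 UMIs, with thinned shares of cells with a UMI of 8.66% and 2.86%. In naive-like cells, where little Cd160 should be found, 0 of 317 CD27_KO and 3 of 1307 WT cells had a UMI. Of the Treg-like clusters, the one led by Cxcl2 and Areg had 3.07 CPM in CD27_KO (5 UMIs) and 7.69 CPM in WT (32 UMIs), with a log2 interval from −3.04 to 0.05, and the other had no UMI in either library. The Il18r1 cluster was near even, at 7.89 and 8.67 CPM.

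Lag3 and Havcr2 gave too few UMIs for more than a coarse account. LAG-3 is a relative of CD4 that binds MHC class II, and TIM-3, the product of Havcr2, binds galectin-9 and phosphatidylserine. Lag3 (chromosome 6, bases 124904361 to 124911705) lies 0.328 Mb from Cd27. The 72 other genes within 5 Mb of Cd27 with at least 100 UMIs had a median log2 ratio of 0.06, against 0.17 over all genes. Of these 72, 7 were at least 1.5-fold higher, against 7.03% of all genes, and 10 were at least 1.5-fold lower, against 2.86%. Lag3 had 54 UMIs, or 2.73 CPM, in CD27_KO T cells and 53 UMIs, or 3.35 CPM, in WT T cells (log2 −0.29, −0.87 to 0.28). With classes at equal shares it was 0.27 (−0.32 to 0.85). Havcr2 (chromosome 11, bases 46454935 to 46481255) had 33 UMIs, or 1.67 CPM, in CD27_KO and 31 UMIs, or 1.96 CPM, in WT (log2 −0.23, −0.98 to 0.52). At equal class shares its log2 ratio was 0.50 (−0.27 to 1.27).

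The even totals of Lag3 hid different sources. Treg-like cells held 74.1% of the Lag3 UMIs in CD27_KO and 34.0% in WT, while follicular helper-like cells held none of 54 in CD27_KO and 14 of 53 in WT, or 26.4%. Within the Treg-like class Lag3 stood at 18.4 CPM in CD27_KO (40 UMIs) and 4.11 CPM in WT (18 UMIs), a log2 ratio of 2.16 (1.32 to 3.05). The smaller Foxp3 and Ctla4 cluster had 47.1 CPM in CD27_KO and 18.8 CPM in WT, on 26 and 4 UMIs. Its log2 ratio of 1.32 had an interval from −0.20 to 3.30, and it took more of the CD27_KO class. In the Cxcl2 and Areg cluster alone the levels were 8.60 and 3.36 CPM, on 14 UMIs each (log2 1.36, 0.18 to 2.53). Shares of its cells with a Lag3 UMI had overlapping intervals after thinning. They were 0.709% in CD27_KO and 0.359% in WT at 1000 UMIs, and 0.889% and 0.700% at 2000 UMIs. Cells with a Foxp3 UMI had 14.6 CPM of Lag3 in CD27_KO and 3.87 CPM in WT (log2 1.92, 0.80 to 3.15). The cells with Il1rl1 and no Foxp3 transcript, whose make-up differed between the libraries, went the other way. They had 6 Lag3 UMIs in CD27_KO and 9 in WT (log2 −1.69, −3.46 to −0.04). Without the Treg-like cells, a setting added after seeing the data, the ratio over all other T cells was −1.94, and without the follicular helper-like cells it was 0.14.

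Havcr2 UMIs also lay mostly in Treg-like cells, with 72.7% of its UMIs in Treg-like cells in CD27_KO and 71.0% in WT. The Treg-like class had 11.02 CPM in CD27_KO (24 UMIs) and 5.03 CPM in WT (22 UMIs), a log2 ratio of 1.13 (0.24 to 2.03). The class holds more of the Foxp3 and Ctla4 cluster in CD27_KO, and within each of its clusters the interval spanned 0. In the Foxp3 and Ctla4 cluster Havcr2 had 23.6 CPM on 13 UMIs in CD27_KO and 14.1 CPM on 3 UMIs in WT (log2 0.74, −1.12 to 3.19). The Cxcl2 and Areg cluster had 6.76 CPM on 11 UMIs in CD27_KO and 4.56 CPM on 19 UMIs in WT (log2 0.57, −0.65 to 1.71). Naive-like cells had no Havcr2 UMI in 317 CD27_KO and 1307 WT cells, and the limit of 3 counts allows shares of up to 0.946% and 0.230%. These Lag3 and Havcr2 values stay under 100 UMIs, so neither was counted among the members at least 1.5-fold higher. Dendritic cell-like cells, left out of these values, had 80.1 CPM of Lag3 in CD27_KO and 94.3 CPM in WT.

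Most T cells showed none of the 9 genes at this depth. Thinned to 1300 UMIs, 82.5% of CD27_KO cells (81.6 to 83.4) and 74.6% of WT cells (73.5 to 75.8) had no UMI of any of them. A UMI of exactly 1 of the genes was found in 15.8% of CD27_KO and 21.6% of WT cells, of 2 in 1.499% and 3.44%, and of at least 3 in 0.163% and 0.300%. The widest gap was in follicular helper-like cells, where 80.0% of 40 CD27_KO cells had none (64.4 to 90.9), against 29.9% of 77 WT cells (19.97 to 41.4). At least 3 of the genes were seen in 0 of those CD27_KO cells and in 10.4% of those WT cells. In the Treg-like cluster led by Cxcl2 and Areg, 71.9% of CD27_KO (66.2 to 77.1) and 61.5% of WT cells (58.4 to 64.5) had none. Naive-like cells were alike, at 79.7% and 82.2%.

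**Figure D4:**
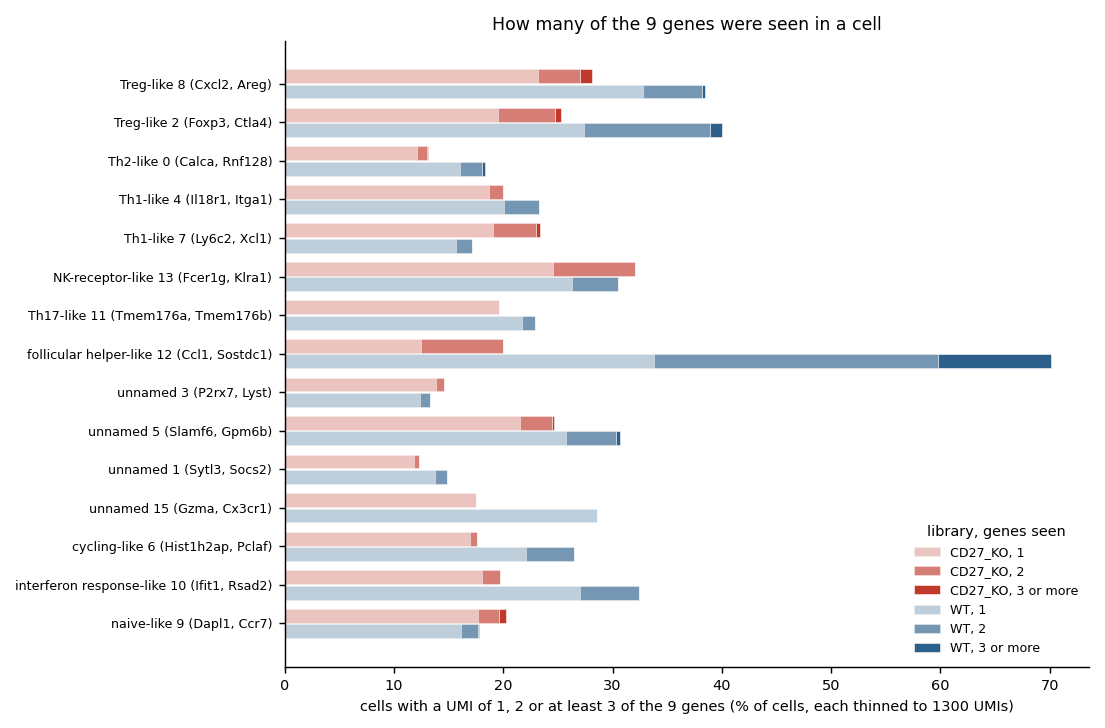
Share of cells (%) with a UMI of 1, 2 or at least 3 of the 9 genes, in light to dark shades, after thinning each cell to 1300 UMIs. CD27_KO is in red above WT in blue for each T cell cluster. The WT bar of the follicular helper-like cluster is the longest, and the CD27_KO bar of the same cluster covers 20% of its 40 cells.

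Pairs of the genes were also looked for in the same thinned cell. Over all T cells, cells with a Pdcd1 UMI had Tox in 12.6% of cases in CD27_KO (6.89 to 20.6) and in 21.3% in WT (15.4 to 28.1). Cells without a Pdcd1 UMI had Tox in 4.40% of cases in CD27_KO and 11.6% in WT. Tigit and Tox were seen together in 0 of 41 CD27_KO cells with Tigit and in 17 of 56 such WT cells, or 30.4%. This rests on the thinning depth, since at 1000 UMIs they met in 1 of 42 CD27_KO and 7 of 50 WT cells (14.0%), and at 2000 UMIs in 3 of 47 and 11 of 41 (26.8%). At both of these depths the WT interval overlapped that of cells without Tigit. Of the pairs with enough cells, 3 of 21 in CD27_KO and 6 of 28 in WT had shares with and without the other gene whose intervals did not overlap, in either order of the pair. In all of these pairs a gene was seen more often in cells with the other gene than in cells without it. The counts were 1 of 21 in CD27_KO and 3 of 28 in WT at 1000 UMIs, and 2 of 21 and 3 of 21 at 2000 UMIs. For Pdcd1 and Tox the intervals did not overlap in either library at any of the 3 depths. Within clusters, 48 such comparisons gave 0 with intervals that did not overlap (1 of 42 at 2000 UMIs), and 22 had a ratio above 1. Few cells carried both genes of a pair, so only wide differences could be seen.

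The levels over clusters and libraries, as 27 points with at least 50 cells each, describe which genes were high and low in the same states. They share libraries and depth, and correlations over them (Pearson, log2 of CPM plus 10) are descriptions. Tox followed Cd81 (r = 0.84), Wls (0.82) and Tnfrsf9 (0.78) most closely among 6041 genes. Cd81 encodes a membrane tetraspanin, Wls a carrier of Wnt proteins and Tnfrsf9 the costimulatory receptor 4-1BB. Pdcd1 followed Rilpl2 (0.79), Irf4 (0.77) and Pdcd1lg2 (0.77), the gene of its own ligand PD-L2. Lag3 followed Mmd (0.87), Izumo1r (0.80) and Ptms (0.80), and Tigit followed Nrp1 (0.80), Eea1 (0.79) and Map1lc3b (0.78). Cd200 was closest to Tbc1d4 (0.83), Slc5a3 (0.79) and Slamf6 (0.75), and Cd160 to Efhd2 (0.81), Ifitm10 (0.81) and Serpinb6b (0.80). For Havcr2 these were Upf3b, Alcam and Asxl1 (0.79 to 0.78), for Btla Shld1, Snhg20 and Thoc1 (0.73 to 0.66), and for Cd96 Lat, Emp1 and Scp2 (0.70 to 0.69). With clusters pooled over both libraries, 10 of these 27 neighbours remained. Among the members themselves, r was 0.74 for Tox and Lag3, 0.72 for Lag3 and Tigit, 0.65 for Tox and Pdcd1 and 0.62 for Tox and Cd200, and −0.47 for Pdcd1 and Cd96.

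The other genes of the pathway were counted in lists, over all T cells. The counts stand beside the 7.03% of all 9755 genes that were at least 1.5-fold higher and the 2.86% that were at least 1.5-fold lower, with a median log2 ratio of 0.17. The median of a list takes in its genes with at least 20 UMIs, while that over all genes takes in those with at least 100. Of 12 ligand and counter-receptor genes, 8 had at least 100 UMIs, 1 of them was at least 1.5-fold lower and 1 at least 1.5-fold higher in CD27_KO, and their median log2 ratio was 0.20. Pdcd1lg2 was the lower, with 11.6 CPM in CD27_KO and 25.6 CPM in WT (log2 −1.14, −1.38 to −0.90, and −1.23 at equal shares). Tnfrsf14 was the higher, with 103 UMIs in CD27_KO and 10 in WT (log2 3.04). Its transcript ends have near-identical stretches in 55 other genes, so the origin of those UMIs is uncertain, whereas no other gene shares such a stretch with the 9 members. Cd274, the gene of PD-L1, stood at 34.7 CPM in CD27_KO and 40.6 CPM in WT, and Pvr at 14.8 and 15.5 CPM. Of the 11 phosphatases and adaptors through which inhibitory receptors act, among them Ptpn6, Ptpn11 and Inpp5d, 0 were 1.5-fold apart, with a median log2 ratio of 0.17.

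Of 8 costimulatory and competing receptors, 7 had at least 100 UMIs. Cd226, the activating rival of TIGIT and CD96, was 1.5-fold higher, at 257 CPM in CD27_KO and 158 CPM in WT (log2 0.71, and 0.36 at equal shares). Ctla4 (log2 −0.85) and Slamf6 (−0.62) were 1.5-fold lower, but their log2 ratios were −0.08 and 0.04 at equal shares, and the median of the list was −0.07. Of 17 relatives of Tox and regulators linked to lasting stimulation, 15 had at least 100 UMIs. Tox2, the closest relative with UMIs, was lower, with 4.04 CPM in CD27_KO and 16.2 CPM in WT (log2 −2.01, −2.39 to −1.64, and −0.95 at equal shares). Also at least 1.5-fold lower were Ikzf2, which encodes Helios (−1.30), Irf4 (−0.93) and Bach2 (−0.61), with −0.38, −0.48 and 0.00 at equal shares. Id2 (0.61) and Prdm1 (0.59), the gene of Blimp-1, were at least 1.5-fold higher, with 0.30 and 0.34 at equal shares. The median of this list was −0.05.

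Of 10 follicular helper and stem-like memory genes, 6 had at least 100 UMIs, 3 of which were at least 1.5-fold lower, against 2.86% of all genes, and 0 higher, against 7.03%. These were Il6ra (log2 −1.07), Id3 (−0.86) and Slamf6 (−0.62). Their ratios at equal shares were −0.03, −0.43 and 0.04. The median over the 9 genes of the list with at least 20 UMIs moved from −0.86 to −0.03. Cxcr5, the chemokine receptor that leads T cells into follicles, had 7 UMIs in CD27_KO and 31 in WT T cells. Tcf7, the gene of TCF-1, was near even, at 212 CPM in CD27_KO and 198 CPM in WT.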

How the data were processed

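The deposited values are UMI counts per gene and called cell, made by the authors with Cell Ranger 6.1.1 per the file headers, on mm10 per the submitters' processing notes. The kit version differs between the design text and the sample protocol of the labels. An antibody feature held 0 UMIs in both libraries. The members and gene lists were chosen with earlier results of these data known, and the cluster naming rule was set after seeing the data.

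Cells under 500 genes or over 10% mitochondrial UMIs, 40 CD27_KO and 60 WT barcodes, were removed. Counts were scaled to 10000 per cell, log-transformed and clustered jointly with scanpy 1.11.5 in Python 3.11.15. The settings were 2000 variable genes, 30 principal components, 20 neighbours and Leiden resolution 1 with seed 0. The 9 members, Cd27, sex-linked, mitochondrial, ribosomal and haemoglobin genes and receptor segments were kept out of the variable genes. A cluster was named from markers with at least 3 of them 1.5-fold enriched, at least 1 among its 10 leading genes, and no second lymphocyte type reaching 0.5 of its median log2 ratio. Clusters of B cell-like, dendritic cell-like and stromal-like character, 63 CD27_KO and 135 WT cells, were left out. No doublet caller was run.

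UMIs were summed over cells per state and library. Ratios are CD27_KO over WT with exact conditional binomial intervals, CPM have exact Poisson intervals, and shares have exact Clopper-Pearson intervals. Ratios at equal shares weight each class by its mean share in both libraries, with approximate intervals. A gene counted as 1.5-fold apart only with at least 100 UMIs over both libraries. Thinning to 1300 UMIs left out 54 CD27_KO and 536 WT T cells. Ratios and intervals were checked on simulated counts with independent UMIs. For thinning, only the totals per cell were checked, on cells of these data. A further group of cells set by transcripts is not reported here. Named genes are the 9 members, up to 3 furthest in each direction per list, and the 3 closest neighbours of each member. Gene positions are from GENCODE vM21, and matches of transcript ends (last 500 bases, at least 91 bases at 95% identity) were made with BLAST 2.17.0.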

Additional observations from a re-analysis of the deposited data

Results flagged for a closer look

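In Pdcd1 and Cd160 the ratio between the libraries had opposite signs in some clusters whose intervals did not overlap each other, though for either gene the intervals on one side spanned 0. The log2 ratio of Pdcd1, CD27_KO over WT, was −1.71 in the Th2-like cluster, 1.95 in the Treg-like cluster led by Foxp3 and Ctla4, and 1.004 in the Th1-like cluster led by Ly6c2 and Xcl1. That of Cd160 was 1.62 in the Th1-like cluster led by Ly6c2 and Xcl1, 0.98 in NK-receptor-like cells and −1.32 in the Treg-like cluster led by Cxcl2 and Areg, where the interval ran from −3.04 to 0.05 on 5 and 32 UMIs. The difference between these clusters was not tested, as there is 1 library per group, and some of the values rest on few UMIs.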

How the results depend on the processing

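The counts over all T cells held under 12 alternatives: 3 members were lower under all of them but centring on the median gene, where 4 were, and 0 were higher. The Tox ratio over all T cells ran from −1.73 to −1.36 over its alternatives and from −1.37 to −0.68 at equal shares. Counts by class were less steady. At equal shares 1 member was lower, against 2, with the 9 genes among the variable genes, with seed 1 and with clusters in place of classes. The count of higher members at equal shares was 1 (against 0) with the 9 genes among the variable genes and with clusters in place of classes. In the first of these 5 of the 9 genes became variable genes, and Cd160 stood at 0.96 and Pdcd1 at −0.37. In Th2-like cells 2 members were lower, against 1, at resolution 0.5 and with seed 1. At resolution 2, 0 members were lower in Th1-like cells and 3 in Treg-like cells, against 1 in each. The cause of these shifts was not tested. Of the single values, 203 stayed within their spread and 30 moved. Cd160 in Th1-like cells ran from −2.97 to 0.38, and Lag3 over all T cells from −1.94 without Treg-like cells to 0.14 without follicular helper-like cells. Leaving out these cells, and keeping the B cell-like, dendritic cell-like and stromal-like clusters in, were chosen after seeing the data. The share of T cells with at least 2 of the genes was 0.945% in CD27_KO and 2.30% in WT when thinned to 1000 UMIs, and 3.53% and 7.18% at 2000. No paired analysis was possible because each group has 1 library. Depth limits Lag3 and Havcr2 most, and clusters under 50 cells in a library rest on few UMIs.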
